A study of Mus musculus with 6 samples.

Results

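The 32 genes described here make, sense, take up, carry and export cholesterol, and they were picked by symbol. Each was read in bone marrow endothelial cells, the cells that line marrow vessels. By the rule, a gene took the brightest probe set (the array's measurement for a transcript) that names that gene alone, and 28 of the 32 had one. Acat2, Nr1h2 and Soat1 had no probe set under their names in the annotation supplied, and the probe set of Idi1 also names another gene, so these members were not analysed here. Of the 28, 24 were bright enough to be tested among 13308 genes, and Cyp51, Dhcr7, Nr1h3 and Lrp1 were dim, with a mean under the 40th percentile of all genes, a log2 value of 5.07. Such a level may show background alone.

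The cells were sorted from male C57BL/6J mice, 5000 for each sample, and total RNA was amplified and hybridised to 1 array per sample. In 3 of the samples the mice had type 2 diabetes, which the study induced by high-fat feeding. The other 3 samples are labelled nondiabetic. All 6 labels carry the same diet, 60 kcal% fat for 4 months, so what the nondiabetic animals ate is not settled. The labels do not say that replicates were different animals, and the p-values and errors therefore reflect sample-to-sample spread alone, possibly a technical one. The labels state neither the sort gate nor the ages. Values are log2 expression made with RMA (robust multi-array average), and each difference is diabetic minus nondiabetic on that scale. A log2 level depends on its probe set, so levels are set against each other within a gene only.

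Cells build cholesterol from acetyl-CoA through mevalonate, farnesyl diphosphate, squalene and lanosterol. When membrane sterol runs low, SCAP escorts the SREBP transcription factors from the endoplasmic reticulum to the Golgi, where they are cut, and the freed part switches on the synthesis genes. INSIG proteins hold SCAP back when sterol is plentiful, and oxysterols then activate the liver X receptors (LXR), which switch on the exporters ABCA1 and ABCG1. Endothelium also takes up and passes on lipoprotein cholesterol, and its membrane cholesterol shapes caveolae.

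No member was called as different between diabetic and nondiabetic cells. Limma called 0 of the 24 tested members at an adjusted p under 0.05, against 0.00751% of all tested genes (1 of 13308), and the smallest adjusted p among the members was 0.997. At an unadjusted p under 0.05 the members held 0 higher and 1 lower gene, Lss, where 3.19% of all tested genes were higher and 1.07% lower. Lss passed the filter on dim genes only through its nondiabetic arrays, so nothing is read from this count. The diabetic arrays all lay below the nondiabetic arrays for Lss and all above them for 0 tested members, and over all tested genes these shares were 2.67% and 5.28%. Of the 24 tested members 9 had higher and 15 lower values, with a median difference of -0.04 beside 0.02 over all tested genes, of which 53.99% were higher. Without diabetic replicate 2 the split was 14 higher and 10 lower.

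The limits of these arrays can be read from the intervals of the fit, which are 95% intervals, not adjusted for the number of genes. For 19 of the 24 tested members the interval lay within 1 log2 unit of no difference, that is, within a 2-fold change either way. The other 5 were Hmgcs1, Fdft1, Hsd17b7, Scarb1 and Stard4. Among all 13308 tested genes the interval lay within 1 log2 unit for 11891. The median within-group SD of the tested members was 0.35, where that of all tested genes was 0.24. For 20 of the 24 the difference between the groups was smaller than the SD within them, as for 9868 of all 13308 tested genes.

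**Figure D1:**
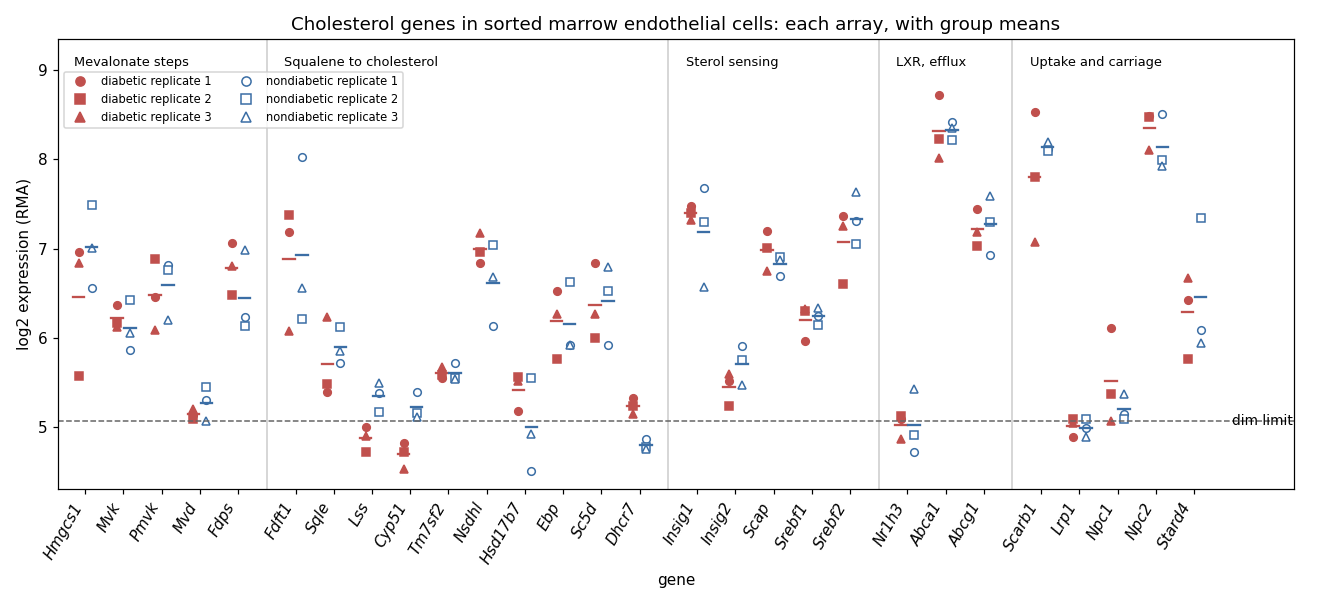
Log2 expression (RMA, vertical axis) of the 28 measured members (horizontal axis, by role) in each of the 3 diabetic arrays (filled) and 3 nondiabetic arrays (open), with group means as short bars and the limit for dim genes (5.07) as a dashed line. The groups lie apart for Lss, Cyp51 and Dhcr7, all beside that limit, and overlap for the other members.

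The 5 measured genes of the mevalonate steps, which turn acetyl units into farnesyl diphosphate, had differences from -0.56 to 0.33, 2 higher and 3 lower. Hmgcs1 encodes the synthase that makes HMG-CoA, and is a standard SREBP target. It is shown with the stretch of its promoter that carries a sterol regulatory element core, TCACNCCAC, the sequence that SREBP binds, here in capitals. The stretch is from RefSeq, build GRCm38.p6, chr13:119690174-119690262, plus strand, at -177 to -89 from the annotated start.
Hmgcs1: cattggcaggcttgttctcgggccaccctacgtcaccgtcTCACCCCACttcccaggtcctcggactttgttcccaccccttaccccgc

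Hmgcs1 stood at 6.97, 5.57 and 6.84 in diabetic replicates 1, 2 and 3 and at 6.56, 7.49 and 7.00 in nondiabetic replicates 1, 2 and 3. The lowest value was that of diabetic replicate 2, far under the other diabetic arrays, which lay inside the nondiabetic range. The group levels were 6.46 ± 0.77 and 7.02 ± 0.46 (SD, n = 3 each), a difference of -0.56 with an interval of -1.46 to 0.34. Diabetic replicate 2 decided most of it: without that array the difference was -0.12. It was -0.33 without nondiabetic replicate 2, -0.81 without diabetic replicate 1 and -1.08 with array weights.

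Fdps, the synthase of farnesyl diphosphate, from which sterols and the lipid anchors of small GTPases both branch off, differed the other way. Its values were 7.06, 6.48 and 6.80 in diabetic and 6.23, 6.13 and 6.98 in nondiabetic arrays, which overlap through nondiabetic replicate 3. The difference was 0.33 (SE 0.26), with an interval of -0.27 to 0.94. Without nondiabetic replicate 3 it was 0.60, and it was 0.18 without nondiabetic replicate 2 and 0.19 without diabetic replicate 1.

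Mvd, the decarboxylase that yields isopentenyl diphosphate, had values of 5.13, 5.09 and 5.20 in diabetic and 5.30, 5.45 and 5.06 in nondiabetic arrays. These lie close to the limit for dim genes, nondiabetic replicate 3 just under it, and the difference was -0.13 (SE 0.16), and -0.24 to -0.042 with each array left out in turn. The kinases that phosphorylate mevalonate and then phosphomevalonate are encoded by Mvk and Pmvk, which differed by 0.10 (SE 0.19) and -0.12 (SE 0.25), with overlapping groups.

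All 10 genes of the arm from squalene to cholesterol were measured, 8 of them with a mean above the dim limit. The differences of these ran from -0.47 for Lss to 0.42 for Hsd17b7, each with a group mean under that limit. The others of the 8 ran from -0.20 for Sqle to 0.37 for Nsdhl. The groups did not overlap for 3 of the 10, Lss, Cyp51 and Dhcr7, and overlapped for all other measured members. Over all 22180 genes, dim ones included, the diabetic arrays lay wholly above for 4.49% and wholly below for 3.76%. Lss encodes lanosterol synthase, which folds squalene epoxide into the first sterol, and Cyp51 the demethylase that acts on lanosterol next. Dhcr7 encodes the reductase of the last step to cholesterol. Each lies beside the dim limit.

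Lss stood at 5.01, 4.72 and 4.89 in diabetic and at 5.38, 5.17 and 5.49 in nondiabetic arrays. All diabetic values were under the limit of 5.07 and all nondiabetic values above it. The levels were 4.87 ± 0.14 and 5.35 ± 0.16 (SD, n = 3 each), and limma gave an adjusted p = 0.997. Since the diabetic values may be background, no fold is given. Over the settings in which it was tested, the fitted difference was -0.56 to -0.40. A dim limit at the 60th percentile left it untested, and so did leaving out nondiabetic replicate 1 or 3.

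Cyp51 stood at 4.82, 4.72 and 4.53 in diabetic and at 5.40, 5.16 and 5.11 in nondiabetic arrays, lower in every diabetic array, as for Lss. Its difference was -0.53 (SE 0.14 in a fit with no filter on dim genes). Dhcr7 lay the other way, at 5.32, 5.23 and 5.15 in diabetic and 4.87, 4.78 and 4.75 in nondiabetic arrays, a difference of 0.43 (SE 0.11 in the same fit). In that fit limma gave an adjusted p = 0.997 for each. With dim genes included, the diabetic arrays lay wholly below for 3.76% and wholly above for 4.49% of 22180 genes. Among the 28 measured members, the diabetic arrays lay wholly below for 2, Lss and Cyp51, and wholly above for 1, Dhcr7. Whether these counts exceed the shares over all genes was not tested. All lie at levels where the probe sets may be near background, so no pattern along the pathway is read from them.

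Because these genes are the members with separated groups, the promoter stretches that hold their CCAAT boxes are shown, from RefSeq build GRCm38.p6. The box, bound by nuclear factor Y, which acts beside SREBP at many sterol genes, is in capitals, and reads ATTGG where it lies on the opposite strand. The Lss stretch is chr10:76531503-76531587, plus strand, at -102 to -18 from the start. For Cyp51 it is chr5:4104698-4104766, minus strand, at -69 to -1. The Dhcr7 stretch is chr7:143830089-143830209, plus strand, at -125 to -5 from the first listed of its annotated starts that has a box.
Lss: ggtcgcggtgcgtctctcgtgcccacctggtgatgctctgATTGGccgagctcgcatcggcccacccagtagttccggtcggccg
Cyp51: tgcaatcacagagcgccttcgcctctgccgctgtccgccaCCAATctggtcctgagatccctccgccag
Dhcr7: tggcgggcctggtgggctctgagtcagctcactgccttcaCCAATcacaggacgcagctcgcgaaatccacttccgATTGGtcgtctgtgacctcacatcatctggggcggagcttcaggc

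RefSeq promoter windows of 300 bases were at hand for 25 of the 32 members, and the motifs were searched on both strands. CCAAT was found for 19 of the 25, among them 13 of the 14 synthesis enzymes with a window, where 41.1% of 27025 genes of all kinds held it in any window. The Sp1 box GGGCGG was found for 22 of the 25, beside 38.2% of all genes. The element core TCACNCCAC was found for Hmgcs1 only, beside 1.44% of all genes, and the overlapping form CACCCCAC for Hmgcs1 and Acat2, beside 3.3%. The LXR element of 2 AGGTCA repeats 4 bases apart was found for 0 members and 0.0148% of all genes. Genes with several starts have several windows, and a match is a string of letters, not a bound site. The windows of Fdps, Fdft1, Sqle, Abcg1, Npc1, Stard4 and Scarb1 were not used here.

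**Figure D2:**
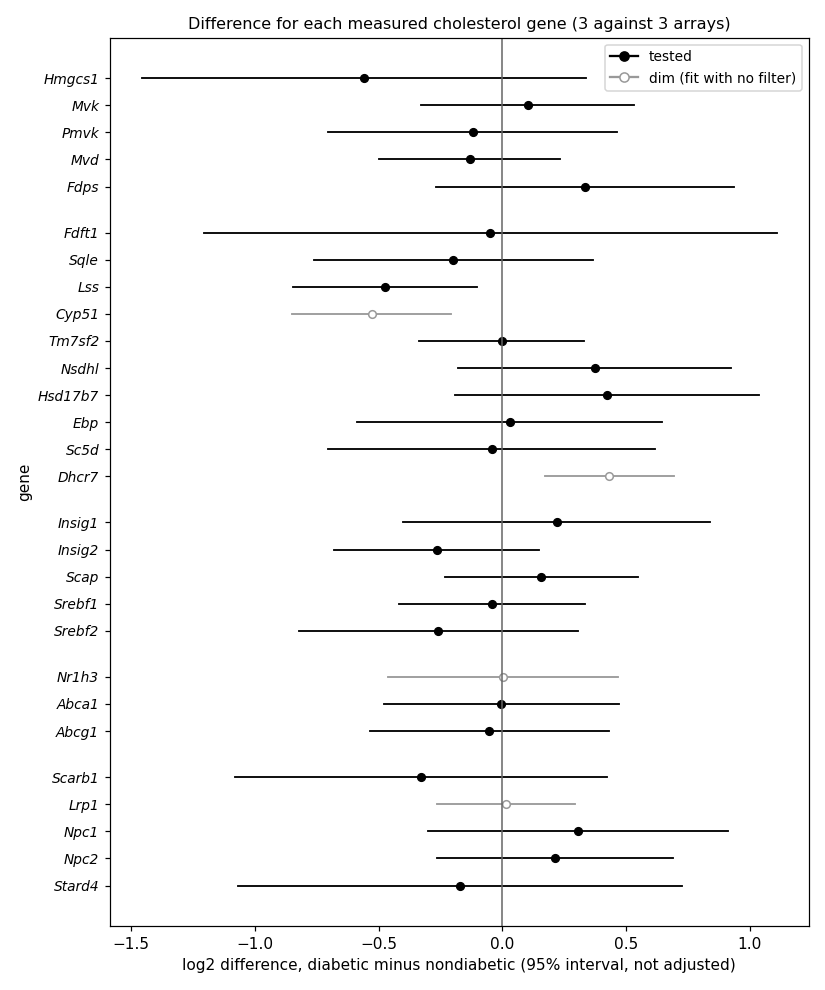
Log2 difference, diabetic minus nondiabetic (horizontal axis), for each measured member (vertical axis, grouped by role), with 95% intervals that are not adjusted for the number of genes. Closed points are the 24 tested members and open grey points the 4 dim members, fitted with no filter; the intervals of Lss, Cyp51 and Dhcr7 lie to 1 side of 0 and all others include 0.

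Within the same arm, Nsdhl and Hsd17b7, which encode enzymes that act on the sterol ring during removal of its extra methyl groups, had higher means in diabetic cells. Hsd17b7 stood at 5.18, 5.56 and 5.52 in diabetic and 4.51, 5.55 and 4.92 in nondiabetic arrays, which gave 0.42 (interval -0.19 to 1.04). Its nondiabetic values of 4.51 and 4.92 lay under the dim limit, and so did its nondiabetic mean, 4.99. Hsd17b7 thus passed the filter on dim genes through its diabetic arrays. Since those nondiabetic values may be background, the size of its difference is not read. Nsdhl stood at 6.84, 6.96 and 7.17 in diabetic and 6.14, 7.04 and 6.69 in nondiabetic arrays, which gave 0.37 (interval -0.18 to 0.92). For both, nondiabetic replicate 2 lay among the diabetic arrays and nondiabetic replicate 1 was the lowest. Without nondiabetic replicate 1 the differences were 0.18 and 0.13, and without nondiabetic replicate 2 they were 0.70 and 0.58.

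Fdft1, the squalene synthase that commits farnesyl diphosphate to sterols, had the widest spread of the members. Its values were 7.19, 7.38 and 6.08 in diabetic and 8.02, 6.21 and 6.56 in nondiabetic arrays, a range of 1.94 over the 6. The means were 6.88 and 6.93, and the interval of the difference, -1.21 to 1.11, corresponds to 0.433-fold to 2.16-fold. The difference was 0.50 without nondiabetic replicate 1 and -0.41 without nondiabetic replicate 2.

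Sqle, the epoxidase that is a rate-controlling enzyme of the pathway, differed by -0.20 (SE 0.25), by -0.044 without diabetic replicate 1 and by -0.46 without diabetic replicate 3. Tm7sf2, a sterol reductase, stood at 5.60 ± 0.06 and 5.60 ± 0.10 (SD, n = 3 each), with an interval of -0.33 to 0.33. The isomerase gene Ebp and the desaturase gene Sc5d, which act on the sterol ring late in the pathway, differed by 0.03 (SE 0.27) and -0.04 (SE 0.29). The signs of Tm7sf2, Ebp, Sc5d and Fdft1 changed with the array left out.

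The synthesis enzymes did not vary as 1 block over the arrays. Of the 13 tested enzymes of both arms, 4 had their highest value in nondiabetic replicate 2, 1 in nondiabetic replicate 3 and 2 in each other array. The lowest value fell in nondiabetic replicate 1 for 4 and in diabetic replicate 2 for 3. The mean deviation from each gene's own mean was 0.10, -0.12 and -0.01 in diabetic replicates 1 to 3 and -0.09, 0.14 and -0.02 in the nondiabetic arrays, so that the arrays of a group differed more than the groups.

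**Figure D3:**
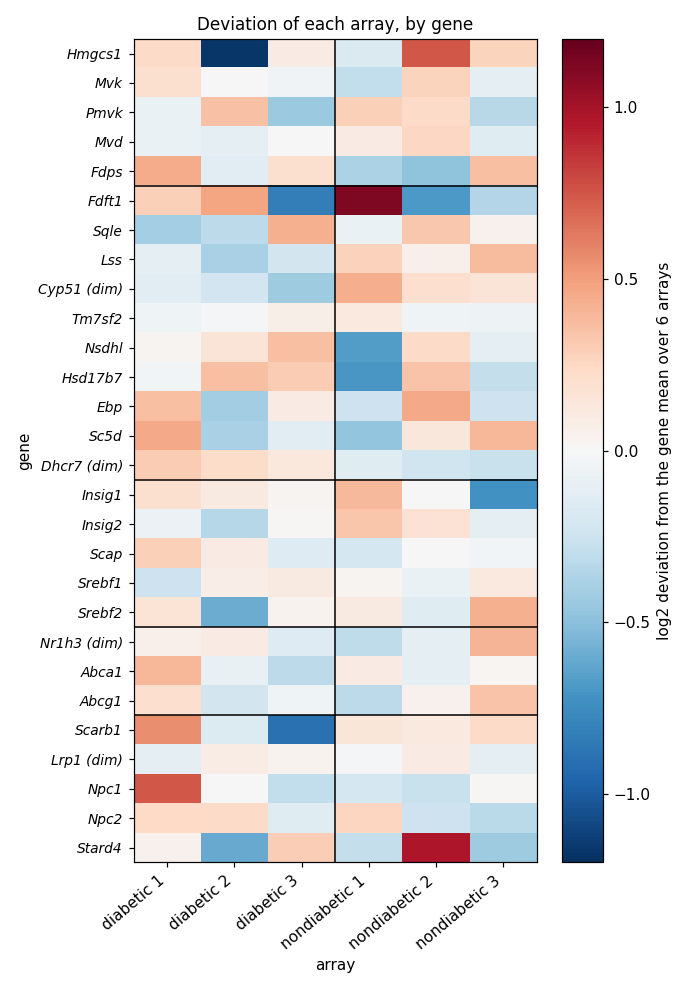
Deviation of each array (columns) from a gene's own log2 mean over the 6 arrays (colour scale), for the 28 measured members (rows, by role). Hmgcs1, Srebf2 and Stard4 are low in diabetic replicate 2, Scarb1 in diabetic replicate 3 and Nsdhl and Hsd17b7 in nondiabetic replicate 1; only Lss, Cyp51 and Dhcr7 have 1 colour for each group.

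The genes of sterol sensing differed by -0.26 to 0.22, 2 higher and 3 lower. Srebf2 encodes the SREBP that drives cholesterol synthesis. It stood at 7.37, 6.61 and 7.25 in diabetic and 7.31, 7.05 and 7.63 in nondiabetic arrays, with diabetic replicate 2 the lowest, as for Hmgcs1. This gave -0.26 (interval -0.82 to 0.31), and -0.025 without diabetic replicate 2. It was -0.41 without diabetic replicate 1, -0.40 without nondiabetic replicate 2 and -0.51 with array weights. Srebf1, whose products turn chiefly on fatty acid synthesis, differed by -0.04 (SE 0.16).

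The INSIG genes leaned opposite ways. Insig2, the form that is less dependent on SREBP, stood at 5.51, 5.24 and 5.59 in diabetic and 5.91, 5.75 and 5.47 in nondiabetic arrays, with overlap through nondiabetic replicate 3. Insig2 differed by -0.26 (interval -0.68 to 0.15), and it was lower under all alternatives tried in which it was tested, from -0.40 to -0.16. Insig1, itself an SREBP target, stood at 7.48, 7.40 and 7.32 in diabetic arrays. In nondiabetic arrays it stood at 7.68, 7.29 and 6.57, on both sides of the diabetic values. Its difference was 0.22 (SE 0.27), and -0.09 without nondiabetic replicate 3.

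Scap, the escort protein, had 2 probe sets of its own. The brighter gave 7.19, 7.00 and 6.75 in diabetic and 6.69, 6.90 and 6.87 in nondiabetic arrays, a difference of 0.16 (SE 0.17), and the other gave -0.012. Leaving out diabetic replicate 1 gave 0.053 for the brighter, and leaving out diabetic replicate 3 gave 0.27. The probe sets of Scap thus differ in sign, both within their errors.

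Among the genes of LXR and efflux, Abca1, which loads cholesterol onto lipid-poor apolipoprotein, stood at 8.73, 8.23 and 8.01 in diabetic and 8.42, 8.21 and 8.35 in nondiabetic arrays. The diabetic values lie on both sides of the nondiabetic ones. The means differed by -0.0040 (interval -0.48 to 0.47), which corresponds to 0.718-fold to 1.39-fold. Diabetic replicate 1 was the highest array for Abca1, and without it the difference was -0.21.

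Abcg1, which exports cholesterol to mature high-density lipoprotein, stood at 7.44, 7.02 and 7.19 in diabetic and 6.93, 7.29 and 7.59 in nondiabetic arrays. This was a difference of -0.05 (interval -0.54 to 0.43). Nr1h3, the gene of LXR alpha, was dim, at 5.08, 5.12 and 4.86 in diabetic and 4.72, 4.91 and 5.43 in nondiabetic arrays. With 3 arrays a group, the fit does not exclude differences anywhere within the intervals of Abca1 and Abcg1. These intervals are not limits of detection.

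For uptake, the scavenger receptor gene Scarb1, whose product binds high-density lipoprotein and in endothelium helps carry lipoproteins across the cell, had more spread in one group. Its values were 8.53, 7.81 and 7.07 in diabetic arrays, where they covered 1.46, and 8.11, 8.09 and 8.20 in nondiabetic arrays. The difference in means was -0.33, with an interval of -1.08 to 0.42. Without diabetic replicate 3 it was 0.03 and without diabetic replicate 1 it was -0.69, so that its sign turned only without diabetic replicate 3. The difference in spread was not tested. Lrp1, a large endocytic receptor, was dim, at 5.01 ± 0.10 and 4.99 ± 0.10 (SD, n = 3 each).

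Npc1 and Npc2 encode the membrane and the soluble protein that hand cholesterol out of the lysosome. Npc1 stood at 6.11, 5.36 and 5.07 in diabetic and 5.15, 5.09 and 5.37 in nondiabetic arrays, a difference of 0.31 (SE 0.26). It was 0.010 without diabetic replicate 1 and 0.53 without diabetic replicate 3. Several of these values lie close to the dim limit. Its other probe set, with means of 5.05 and 4.91, both under that limit, gave 0.14. Npc2 stood at 8.49, 8.47 and 8.10 in diabetic and 8.51, 7.996 and 7.92 in nondiabetic arrays. Npc2 differed by 0.21 (interval -0.27 to 0.69), and it was higher under all alternatives tried, from 0.10 to 0.40. Stard4, which carries sterol between membranes and is an SREBP target, stood at 6.29 ± 0.47 and 6.46 ± 0.77 (SD, n = 3 each), a difference of -0.17 with an interval of -1.07 to 0.73. Its highest value, 7.34, was that of nondiabetic replicate 2 and its lowest, 5.77, that of diabetic replicate 2, and the sign turned when either was left out.

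Markers of the sorted cells and of others were read on the same arrays, and limma called 0 of those tested at an adjusted p under 0.05. All 14 endothelial markers listed were above the dim limit, and their mean level was 9.81, 9.11 and 9.08 in diabetic replicates 1 to 3 and 9.42, 9.62 and 9.12 in the nondiabetic arrays. Diabetic replicate 1, the highest in these markers, held the highest value for 6 of the 24 tested members, nondiabetic replicates 1 and 2 for 5 each, nondiabetic replicate 3 for 4 and the other arrays for 2 each. The markers' median difference was -0.10, from -0.35 without diabetic replicate 1 to 0.069 without diabetic replicate 3. With the endothelial mean as a covariate, limma called 0 members, and the median difference was -0.02. Of the markers of vessel types, all 7 tested arteriolar markers had lower means in diabetic arrays, with a median difference of -0.45. Without nondiabetic replicate 2 they were 2 higher and 5 lower, with a median of -0.41, and without diabetic replicate 2 they were 1 and 6, with -0.37. Of 8 sinusoidal markers 6 had higher means, with a median of 0.62, or 0.44 without diabetic replicate 1. Whether cells other than endothelium add to these values was not tested. The part of these marker differences in the members' values was not tested. In a bulk sort, fewer cells of a type and less RNA per cell cannot be told apart.

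Macrophages also carry the LXR, efflux and lysosomal genes. Of 7 tested monocyte and macrophage markers 7 had higher values in diabetic arrays, with a list mean of 7.10 to 7.36 in diabetic and 6.65 to 7.01 in nondiabetic arrays, and Adgre1, Fcgr1 and Mpeg1 were dim. The median difference of this list was 0.43, and 0.24 without diabetic replicate 1. Neutrophil markers had higher means for 6 of 7 tested, with list means of 7.23 to 7.39 in diabetic and 6.63 to 7.13 in nondiabetic arrays. Their median was 0.50, or 0.21 without diabetic replicate 1 and 0.29 without nondiabetic replicate 3. The largest of these differences, that of S100a8, came with nondiabetic values from 3.52 to 7.61. Camp and Ltf were dim, and their means were lower in diabetic arrays. Medians over the tested markers were 0.31 for 7 B and plasma cell genes, 0.11 for 5 erythroid genes, 0.062 for 4 megakaryocyte genes and 0.11 for 5 stromal genes. Single arrays moved these: the B and plasma cell median was 0.087 without diabetic replicate 1, and the erythroid median was -0.019 without nondiabetic replicate 3. The megakaryocyte median ran from -0.18 without diabetic replicate 3 to 0.29 without nondiabetic replicate 3, with 0 of its 4 genes higher without nondiabetic replicate 2. Of the stromal list, Lepr, Pdgfra and Adipoq were dim. Genes of that list above the dim limit included Pdgfrb, with means of 5.68 in diabetic and 5.57 in nondiabetic arrays, and Acta2, with 8.91 and 8.57. The part of these cells in the values of Npc1, Npc2, Abca1 and Abcg1 was not tested.

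Other genes of the pathway were counted from lists chosen for their role. Limma called 0 of them at an adjusted p under 0.05. Of 12 tested relatives of synthesis, such as genes of fatty acid and dolichol synthesis, 10 were higher and 2 lower, with a median of 0.10. The count rested on single arrays: without diabetic replicate 1 it was 5 higher and 6 lower, and without nondiabetic replicate 1 it was 5 and 7. Its genes with the smallest p-values were Dhdds, a subunit of the dolichol-making enzyme, with 0.39 (SE 0.24), and the fatty acid synthase gene Fasn, with 0.16 (SE 0.16).

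Of 9 tested genes of SREBP cleavage and of sterol-regulated protein degradation, 7 were higher and 2 lower, with a median of 0.20, and 5 and 4 without diabetic replicate 1 or nondiabetic replicate 1. Erlin1 and Erlin2 encode partner proteins of 1 complex of the endoplasmic reticulum that restrains SREBP. They differed in opposite directions, by 0.71 (SE 0.31) and -0.74 (SE 0.38), with overlapping groups.

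Of 12 tested LXR targets and oxysterol genes 6 were higher and 6 lower, with a median of -0.02, and 3 and 9 without diabetic replicate 1. The sterol-binding protein gene Osbpl1a, at 5.52 ± 0.03 and 5.25 ± 0.22 (SD, n = 3 each), and Abca7, a lipid transporter, differed by 0.27 and -0.23. For Osbpl1a all diabetic arrays lay above all nondiabetic ones, as for 5.28% of all tested genes. Of 13 tested genes of lysosomal and membrane sterol carriage 9 were higher and 4 lower, with a median of 0.06. For Lrpap1, a chaperone of lipoprotein receptors, and Gramd1b, which moves plasma membrane cholesterol to the endoplasmic reticulum, the groups were also apart in that direction, beside the same 5.28%. Their differences were 0.52 (SE 0.25) and 0.37 (SE 0.17). Without diabetic replicate 1 the list had 5 higher and 8 lower genes.

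**Figure D4:**
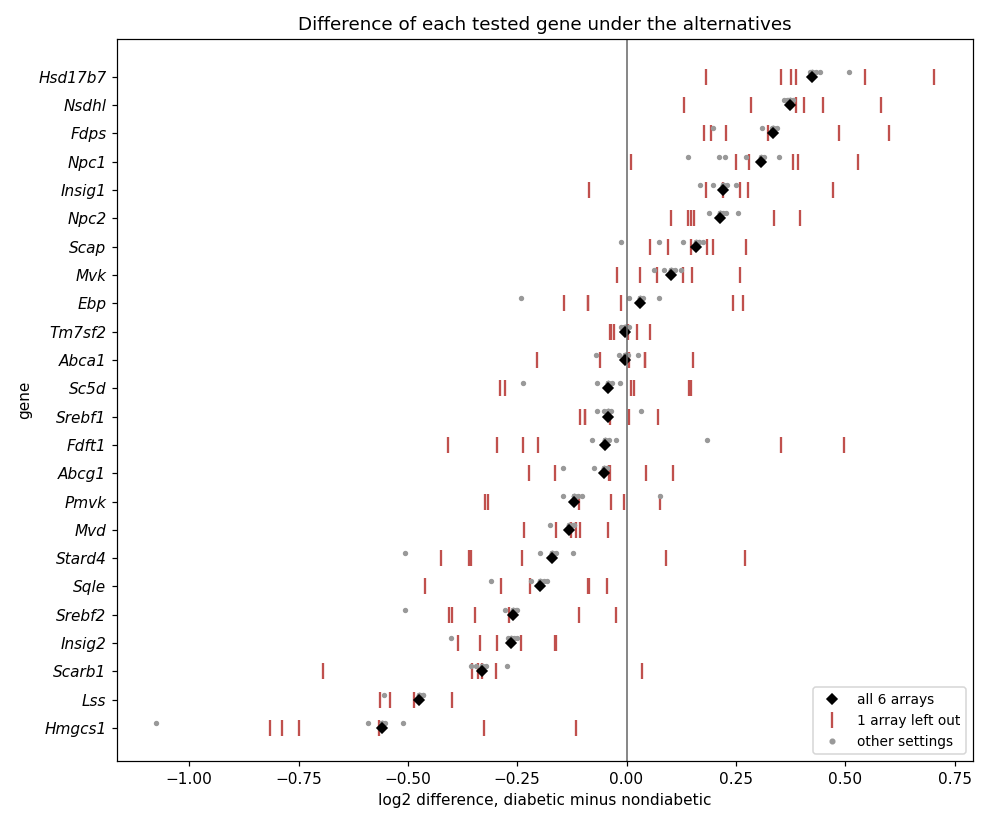
Log2 difference, diabetic minus nondiabetic (horizontal axis), of the 24 tested members (vertical axis, sorted by the difference on all 6 arrays): diamonds for all 6 arrays, red ticks for fits without 1 array, grey dots for the other settings. Among others, the ticks lie on 1 side of 0 for Hmgcs1, Insig2 and Npc2 and on both sides for Abca1, Fdft1 and Scarb1.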

How the data were processed

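For 6 arrays the authors deposited 41345 probe set values each, on a log2 scale by their range, 2.16 to 13.30, and made with RMA per the submitters' processing notes. RMA includes a normalization between arrays, which can remove a change shared by most genes. The software behind it is not given in the sources used here. Array medians were 5.21 to 5.28, and the number of arrays limits the precision.

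Gene names came from the platform annotation supplied, which can be old: 23521 probe sets name 1 gene and 1814 several. The test was that of limma 3.58.1, run in R 4.3.3 (lmFit and eBayes, two-sided, no covariates) over 13308 of 22180 genes above the 40th percentile of mean level, with Benjamini and Hochberg adjustment over all of them and a threshold of 0.05. The fit was run on simulated data with known changes, as a check on the size of its estimates. The share of those changes that it called is not given here, so nothing on the absence of called members is read from it. With 3 arrays against 3, an exact permutation test could not go below p = 0.1. The members, lists and motifs were chosen with earlier results of these data known. Values in every array are given for members whose groups do not overlap, for the 3 smallest p-values and the highest mean in each role, and elsewhere where an array decides a value. From each related list the 2 smallest p-values are named. Alternatives were other filters, probe set means, other scalings, variance models, array weights, a replicate block, an endothelial covariate and leaving out each array. Arrays with the same replicate number shared little deviation from their group means (correlations of deviations -0.04, -0.06 and 0.02). These values cannot show whether such arrays were handled together.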

Additional observations from a re-analysis of the deposited data

How the results depend on the processing

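Under all 15 alternatives limma called 0 members, and the smallest adjusted p was 0.470, with array weights. The median difference of the members stayed between -0.12 and 0.04, moves smaller than 0.22, the SD within groups of the arrays' median member level. The only gene called on all 6 arrays is no member, and 0 genes were called with the filter at the 60th percentile or without nondiabetic replicate 3. With the replicate block 1 gene and 0 members were called, and the members' median difference was -0.04, so the block changed no call. Of the 24 tested members 11 kept their sign in every alternative that tested them, and 13 did not. Lss and Hsd17b7 are among the 11, but for each the values of a group may be background, so nothing is read from their signs. Some alternatives also left Lss untested.

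The sign also turned in some settings that kept all arrays. Median centring gave 0.0052 for Tm7sf2 and 0.0041 for Abca1. Array weights gave 0.077 for Pmvk, 0.184 for Fdft1, -0.242 for Ebp and 0.033 for Srebf1. The endothelial covariate gave 0.026 for Abca1, and the other probe set of Scap gave -0.012.

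With each array left out in turn the ranges were -0.0215 to 0.26 for Mvk, -0.32 to 0.076 for Pmvk, -0.41 to 0.50 for Fdft1, -0.037 to 0.054 for Tm7sf2, -0.14 to 0.27 for Ebp, -0.29 to 0.15 for Sc5d, -0.086 to 0.47 for Insig1, -0.11 to 0.072 for Srebf1, -0.21 to 0.15 for Abca1, -0.22 to 0.11 for Abcg1, -0.69 to 0.035 for Scarb1 and -0.43 to 0.27 for Stard4. The cause of these changes was not tested beyond the array left out. Levels near the dim limit bound what can be read from Lss, Cyp51, Dhcr7, Mvd, Hsd17b7, Npc1, Nr1h3 and Lrp1.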
